A study of Homo sapiens with 11 samples.

Results

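The genes described here encode the translation initiation factors, the proteins that bring a ribosome to the start codon of an mRNA. They were taken from the gene names of the table: every name that starts with EIF and a digit from 1 to 6, leaving out the EIF2AK kinases, names with a hyphen and numbered pseudogenes, and keeping the EIF4EBP genes. The rule found 51 of 38021 genes and used no measured value. Of these, 49 passed the filter on low counts, and EIF1AY and EIF4E1B did not and were not tested.

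RNA was sequenced from wild-type HEK293T, a widely used cell line derived from human embryonic kidney, after 6 h of treatment. The 11 conditions were vehicle (0.1% DMSO), thapsigargin (Tg, spelled Thapsigargain in the labels) at 500 nM, AA147 at 10 µM, and AA132 at 0.1, 0.3, 1, 3, 6, 10, 15 and 30 µM. Tg empties the calcium store of the endoplasmic reticulum (ER) by inhibiting its pump, and is a standard agent for broad ER stress. The small molecules AA147 and AA132 are studied for turning on ER stress signalling. Each condition has 1 sample in the labels and 3 numbered columns in the table, 33 in all. Whether these are separate cultures is not in the labels, so n counts these libraries. The p-values weigh a difference against the spread between libraries, which may be technical. That spread was estimated over all 11 conditions together, or for the dose slope over the AA132 libraries, and not from the compared libraries alone.

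Initiation runs in steps that the factors share out. The eIF2 complex carries the initiator tRNA, eIF2B reloads eIF2 with GTP, eIF3 is the large scaffold on the small ribosomal subunit, and eIF1, eIF1A and eIF5 check the start codon. The eIF4F complex, made of the cap-binding eIF4E, the scaffold eIF4G and the helicase eIF4A, brings in the mRNA, and the 4E-binding proteins hold eIF4E back. Under stress, kinases phosphorylate eIF2 and so block eIF2B, which lowers initiation in general and raises translation of the mRNA for the transcription factor ATF4. Phosphorylation and protein levels were not measured here; the data are mRNA levels.

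Library totals ran from 32.27 to 37.96 M counts, and 36.36 M was the second lowest. The members together took 1.139% to 1.272% of a library's counts. Within conditions, pairs of libraries differed by more than counting error, with a chi-square per degree of freedom of 4.48 to 59.4 (median 7.56, 33 pairs), where counting error alone gives about 1. Vehicle library 1 stood apart most, at 59.4 and 46.2 against the other vehicle libraries, followed by AA132 10 µM library 1 (36.1 and 33.7) and AA147 library 1 (23.0 and 22.2). Without vehicle library 1, the number of members called under Tg was 15 in place of 17, with 12 genes in common, and at 30 µM AA132 it was 8 in both fits, with 5 in common. Of the line's markers, GAPDH, ACTB, VIM, KRT8 and KRT18 were between 297.6 and 3883 CPM in the vehicle libraries, while NES was at 9.62 to 12.4 CPM. Of 5 markers of other cell types, PTPRC and HBB had no counts in vehicle or Tg, ALB and CDH5 were at most at 0.186 CPM, and COL1A1 was at 39.97 to 49.8 CPM in vehicle.

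Levels were compared between genes as CPM (counts relative to the total of their library, scaled between libraries) per kb of the canonical GENCODE transcript, which need not be the transcript these cells use. In vehicle, EIF3K was the highest member at 503 ± 72.4 CPM per kb (SD, n = 3), and its libraries lay above those of EIF4G2 (346 ± 36.8). EIF4G2 encodes a scaffold related to eIF4G that lacks the eIF4E site. EIF5A (329 ± 48.6) and EIF3I (311 ± 28.4) followed, and from EIF4G2 down to EIF3B (233 ± 20.0) each member overlapped the next. Genes of eIF3 held 9 of the ranks from 1 to 13. The eIF2 and eIF2B subunits lay in the middle, between 16.9 ± 1.67 (EIF2B2) and 59.5 ± 6.07 CPM per kb (EIF2B4). EIF4E (2.44 ± 0.20), EIF4E3 (0.893 ± 0.23), EIF5A2 (0.812 ± 0.21) and EIF1AX (0.536 ± 0.04) were the lowest members that passed the filter.

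**Figure D1:**
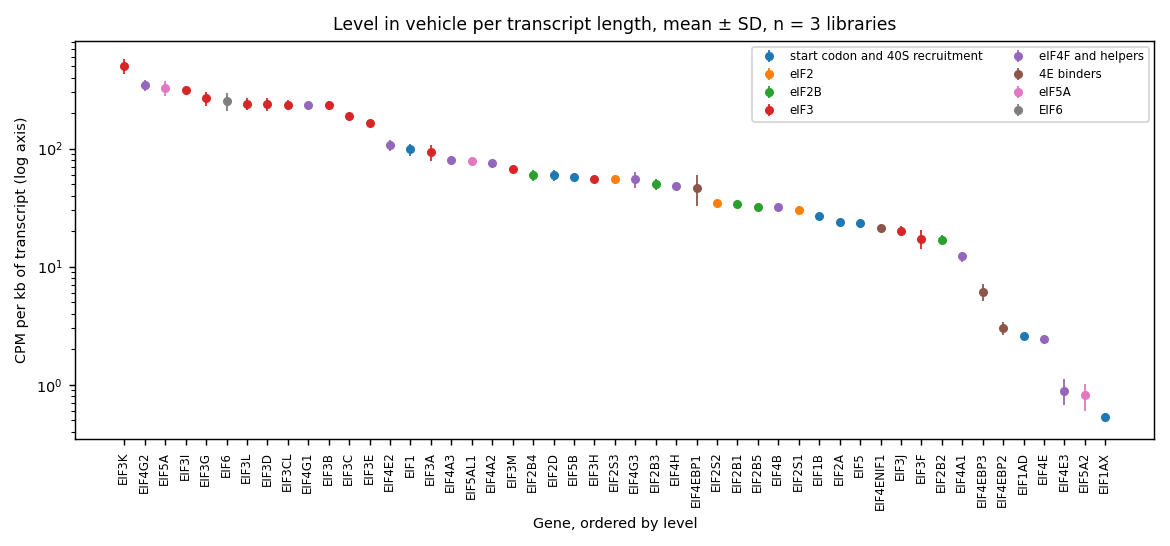
Level of each member in vehicle, in CPM per kb of canonical transcript on a log axis, as mean ± SD over 3 libraries and coloured by factor. EIF3K is highest at 503 CPM per kb, and EIF1AX lowest at 0.536 CPM per kb.

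Some members share sequence with another entry. EIF4A1, the main eIF4A helicase, had 21.5 CPM in vehicle under its own name, while the read-through entry SENP3-EIF4A1, which the rule leaves out, had 1811 ± 185 CPM (SD, n = 3). The EIF4A1 entry therefore holds a small share of the reads of this locus, and its values are uncertain as a measure of the gene. EIF4EBP3 is in the same position, at 4.25 CPM beside 117 ± 21.8 CPM for ANKHD1-EIF4EBP3. EIF3C and EIF3CL are near-identical copies, and EIF5AL1 is a copy of EIF5A, so the split of reads within each pair is uncertain.

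How the factors respond to broad ER stress was asked by comparing Tg with vehicle. Of 49 members tested, 17 (34.7%) were called at an adjusted p under 0.05 (edgeR's quasi-likelihood test, Benjamini-Hochberg adjusted over 17793 genes), 10 higher and 7 lower. Of all genes tested, 31.2% were called, 16.2% higher and 15% lower, so the members' share was near that background. The members' median log2 fold change was 0.02, beside 0.00 over all genes. CPM are shares of a library, so a change in the total RNA per cell cannot be told apart from no change on this scale. Among the markers, COL1A1 (19.7 to 20.3 CPM), VIM (702 to 739 CPM) and NES (3.02 to 4.45 CPM) were lower in every Tg library than in vehicle, and their part in the members' changes was not tested.

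**Figure D2:**
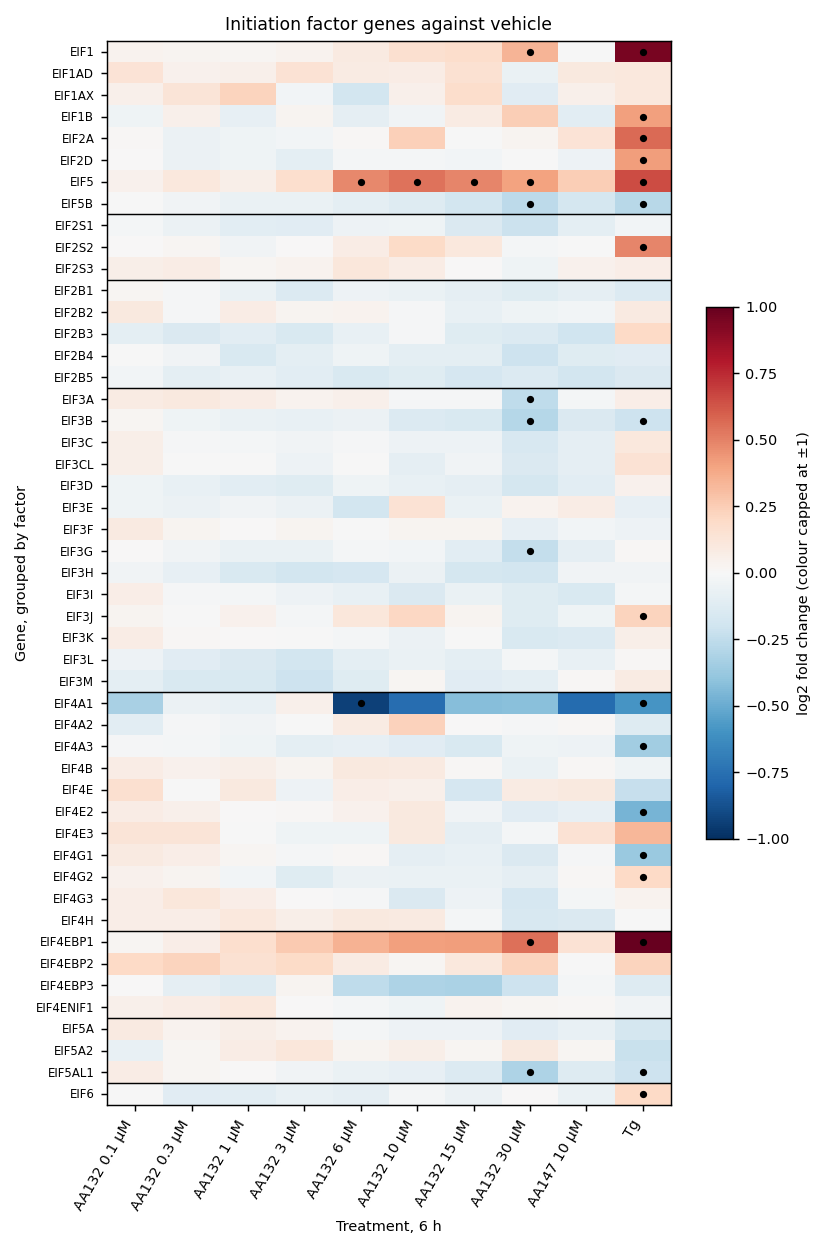
Log2 fold change against vehicle of the 49 tested members (rows, grouped by factor) in the 10 treatments (columns), with colour capped at ±1 and a dot where the adjusted p is under 0.05. Tg holds 17 dots, and AA132 at 30 µM holds 8.

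The start-codon factors were grouped with EIF1AD, EIF2A, EIF2D and EIF5B. This mixed group gave 5 higher and 1 lower of 8 tested under Tg, with a median log2 fold change of 0.42. EIF1 (chromosome 17, 41688885 to 41692668 in GENCODE v44, GRCh38) encodes the factor that rejects wrong start codons. It had 259, 225 and 207 CPM in the vehicle libraries and 458, 434 and 441 CPM under Tg. All Tg libraries lay well above all vehicle libraries, a 1.93-fold rise (log2 fold change 0.95, SE 0.07, adjusted p = 1.58e-12). Its paralog EIF1B (chromosome 3, 40309707 to 40312424) had 26.0, 26.2 and 26.9 CPM in vehicle and 35.8, 34.6 and 34.8 CPM under Tg. These groups did not overlap either, and the rise was 1.33-fold (log2 fold change 0.41, SE 0.08, adjusted p = 1.66e-04).

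EIF5 encodes the protein that makes eIF2 hydrolyse its GTP once the start codon is found. The gene (chromosome 14, 103333544 to 103345025) had 123, 146 and 131 CPM in vehicle and 208, 206 and 216 CPM under Tg. The groups were far apart, a 1.58-fold rise (log2 fold change 0.66, SE 0.08, adjusted p = 1.48e-07). EIF5B (chromosome 2, 99337371 to 99401326), the GTPase that joins the ribosomal subunits at the end of initiation, went the other way. It had 353, 343 and 302 CPM in vehicle and 263, 266 and 295 CPM under Tg, with the highest Tg library just under the lowest vehicle library (log2 fold change -0.28, SE 0.08, adjusted p = 0.0048). With the libraries of Tg and vehicle alone in the fit, the EIF5B call was lost (adjusted p = 0.0547).

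EIF2A and EIF2D encode proteins that can bring tRNA to the ribosome apart from eIF2; EIF2A is not the alpha subunit of eIF2, which EIF2S1 encodes. EIF2A (chromosome 3, 150546678 to 150586016) had 89.6, 90.7 and 96.8 CPM in vehicle and 132.2, 144 and 134 CPM under Tg. Every Tg library was higher than every vehicle library, a 1.48-fold rise (log2 fold change 0.57, SE 0.08, adjusted p = 2.07e-06). EIF2D (chromosome 1, 206571292 to 206612465) had 133, 116 and 110 CPM in vehicle and 158, 159 and 163 CPM under Tg. Here too the groups were apart, although vehicle library 1 was the highest of its group (log2 fold change 0.42, SE 0.06, adjusted p = 1.95e-06). EIF1AX, which encodes eIF1A, and EIF1AD did not pass the test under Tg (adjusted p = 0.72 and 0.541).

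Promoter sequences are shown for EIF1, EIF2A and EIF5, the genes of this mixed start-codon group with the largest rises under Tg. The set of RefSeq promoters used here (GRCh38.p14) held 58 promoters for 43 of the 51 members, from 250 bases before to 50 bases after the start. That set held none for EIF2S2, EIF3A, EIF3CL, EIF3E, EIF3G, EIF3H, EIF3L and EIF4EBP1. Starts are those of RefSeq, which are also the starts of the canonical GENCODE transcripts of these 3 genes. Other GENCODE transcripts of EIF2A and EIF5 start further upstream, which is why the gene positions above begin before the RefSeq starts. Only stretches outside GENCODE exons are printed for EIF1 and EIF5. For EIF2A only the 30 bases around an ER stress element in its window are printed, which lie in exons of minor transcripts. They read 5′ to 3′ on the strand of the gene, and capitals mark the letters CCAAT or its reverse complement ATTGG and, in EIF2A, the whole element. EIF1 is at chr17:41688635-41688884, EIF2A at chr3:150546705-150546734 and EIF5 at chr14:103333987-103334188, all on the plus strand.
EIF1: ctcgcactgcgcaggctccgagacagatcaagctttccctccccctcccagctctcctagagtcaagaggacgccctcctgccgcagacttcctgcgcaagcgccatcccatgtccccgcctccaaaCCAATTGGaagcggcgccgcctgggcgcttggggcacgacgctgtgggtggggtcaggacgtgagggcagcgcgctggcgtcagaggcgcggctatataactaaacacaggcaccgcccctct
EIF2A: aaacaCCAATTCGCTGTCTCCACGcatgag
EIF5: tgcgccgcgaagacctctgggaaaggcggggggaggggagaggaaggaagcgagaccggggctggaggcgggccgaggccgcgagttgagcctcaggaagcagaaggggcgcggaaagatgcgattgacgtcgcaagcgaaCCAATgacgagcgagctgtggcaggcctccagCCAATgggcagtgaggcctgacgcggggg

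Both strands were searched for a pair of motifs. The ER stress response element, written as CCAAT, any 9 bases and CCACG, is known as a site of the ER stress factor ATF6 with NF-Y. It was found in 27 of 35116 RefSeq promoters (0.0769%) and in 1 member promoter, that of EIF2A, where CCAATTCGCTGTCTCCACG begins at base -77 from the RefSeq start (chr3:150546710-150546728). By the first GENCODE start of the gene, at 150546678, the same letters lie downstream of the start. The C/EBP-ATF element TGATGNAA, known as a site of ATF4, was found in 3.62% of all promoters and in 1 member promoter, that of EIF4E3 at base -13. Members without a promoter in the set, EIF4EBP1 among them, were not searched. The letters CCAAT, which lie within the ER stress element and were added after the values were seen, were in 34.6% of all promoters and in 21 of the 58 member promoters (36.2%). These are matches of letters in this window, not tests of binding.

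The EIF2A start faces that of SERP1 on the other strand, with 290 bases between the RefSeq starts. SERP1, chosen after its values were seen, encodes a small protein of the ER membrane that is known to respond to ER stress. It had 20.8, 22.1 and 22.2 CPM in vehicle and 67.4, 64.4 and 67.8 CPM under Tg (log2 fold change 1.62, SE 0.09, adjusted p = 2.62e-16). Both genes of the pair were thus higher in every Tg library, SERP1 by the larger fold. At 30 µM AA132, EIF2A was at 94.2 ± 5.03 CPM (SD, n = 3), overlapping vehicle (log2 fold change 0.03, 95% interval -0.14 to 0.19) and SERP1 at 26.0, 27.2 and 23.9 CPM (log2 fold change 0.24, adjusted p = 0.0867). Strand use in the counting is not given in the sources used here, so reads from overlapping transcripts of the pair cannot be told apart.

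**Figure D3:**
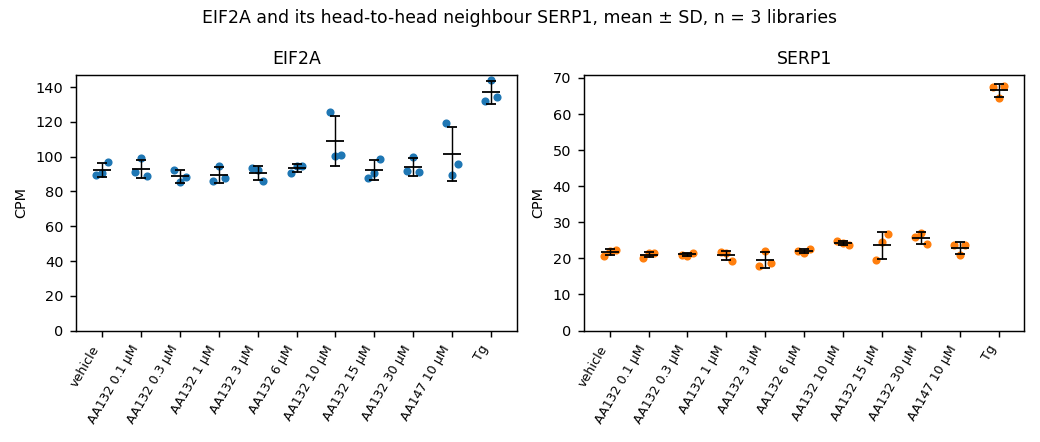
CPM of EIF2A and of SERP1, the gene that starts on the other strand beside it, in each library (points) of the 11 conditions, with mean ± SD over 3 libraries. Tg stands above the other conditions for both genes, at 132.2 to 144 CPM for EIF2A and 64.4 to 67.8 CPM for SERP1.

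In some conditions library 1 was high for EIF2A. AA132 10 µM library 1 had 126 CPM beside 101 and 101, and AA147 library 1 had 119.5 CPM beside 89.7 and 95.7. These are the same libraries that stood apart over all genes, and EIF2A was not called in either condition. EIF4A2, the second eIF4A helicase, showed the same pattern, at 201 CPM beside 144 and 154.5 in AA132 10 µM and at 159 CPM beside 138 and 131.6 under AA147. It was called in no comparison.

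Of the 3 eIF2 subunits, 1 was called under Tg. EIF2S2 (chromosome 20, 34088309 to 34112243), the beta subunit, had 93.1, 92.6 and 79.9 CPM in vehicle and 123, 117 and 133 CPM under Tg. The groups were apart, a 1.4-fold rise (log2 fold change 0.49, SE 0.07, adjusted p = 8.01e-07). EIF2S1, the alpha subunit that the stress kinases phosphorylate, had a log2 fold change of -0.03 (SE 0.07, adjusted p = 0.828), and EIF2S3, the gamma subunit, 0.06 (SE 0.06, adjusted p = 0.461). The 5 eIF2B subunits gave 0 calls by edgeR under Tg, with 3 at an unadjusted p under 0.05. EIF2B3 was at 0.20 (adjusted p = 0.0612), EIF2B5 at -0.14 (adjusted p = 0.0981) and EIF2B1 at -0.14 (adjusted p = 0.119). DESeq2 added none of the eIF2B genes, and the fit on total counts alone added EIF2B1 and EIF2B5.

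The eIF3 subunits, 14 entries with EIF3CL, gave 1 higher and 1 lower call under Tg and a median log2 fold change of 0.03. EIF3J (chromosome 15, 44537125 to 44563029), a loosely bound subunit, had 49.5, 54.6 and 45.3 CPM in vehicle and 60.2, 57.0 and 57.4 CPM under Tg (log2 fold change 0.22, adjusted p = 0.0228). The groups were apart by a narrow gap. EIF3B (chromosome 7, 2354086 to 2380745), a core scaffold subunit, had 791, 701 and 672 CPM in vehicle and 611, 601 and 664 CPM under Tg (log2 fold change -0.21, adjusted p = 0.0285), and the closest libraries nearly touched. The EIF3B call was lost without vehicle library 1, the highest of its group (adjusted p = 0.159), and without Tg library 1 (adjusted p = 0.0678) or 2 (adjusted p = 0.112). EIF3J was lost in 7 of 12 alternatives, among them without vehicle library 1 (adjusted p = 0.0501) or 3 (adjusted p = 0.15) and without Tg library 1 (adjusted p = 0.119) or 3 (adjusted p = 0.0621).

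The eIF4F group, the cap-binding, scaffold and helicase genes with their helpers, gave 1 higher and 4 lower of 11 tested under Tg, with a median log2 fold change of -0.13. EIF4G1 (chromosome 3, 184314495 to 184335358), the main eIF4G scaffold, had 1307, 1256 and 1236 CPM in vehicle and 980.5, 939.8 and 1023 CPM under Tg. All Tg libraries were lower, to 0.775 of vehicle (log2 fold change -0.37, SE 0.06, adjusted p = 2.37e-05). EIF4E2 (chromosome 2, 232550659 to 232583644), a cap-binding relative of eIF4E that represses translation, had 116, 98.4 and 96.6 CPM in vehicle and 75.7, 68.2 and 80.6 CPM under Tg. This fall, to 0.723 of vehicle, separated the groups (log2 fold change -0.47, SE 0.09, adjusted p = 8.74e-05).

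EIF4A3 (chromosome 17, 80134369 to 80147151) belongs to the helicase family by sequence and is known as a core part of the exon junction complex. It had 220, 194 and 186 CPM in vehicle and 157, 153 and 161 CPM under Tg (log2 fold change -0.35, SE 0.07, adjusted p = 1.37e-04), with no overlap. EIF4A1 under its own name had 21.4, 23.6 and 19.4 CPM in vehicle and 15.7, 13.6 and 13.5 CPM under Tg (log2 fold change -0.59, SE 0.22, adjusted p = 0.0386). The groups were apart, but the call was lost by DESeq2 (adjusted p = 0.0621), without vehicle library 1 (adjusted p = 0.0531) or 2 (adjusted p = 0.0915), and without Tg library 2 (adjusted p = 0.107) or 3 (adjusted p = 0.0973). The read-through entry SENP3-EIF4A1, with most of the counts, had 2015, 1763 and 1653 CPM in vehicle and 1511, 1569 and 1614 CPM under Tg. It was also called lower, with a log2 fold change of -0.21 (SE 0.08, adjusted p = 0.031).

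EIF4G2 (chromosome 11, 10797050 to 10808940) was the member of this group called higher. It had 1160, 1435 and 1337 CPM in vehicle and 1511, 1536 and 1475 CPM under Tg (log2 fold change 0.20, SE 0.06, adjusted p = 0.009). The groups did not overlap, and vehicle library 1 was the lowest of its group; without it the call was lost (adjusted p = 0.131). The cap-binding gene EIF4E, at 5.46, 5.86 and 6.41 CPM in vehicle, did not pass the test (log2 fold change -0.23, SE 0.17, adjusted p = 0.333). EIF4A2, EIF4B, EIF4H, EIF4G3 and EIF4E3 did not pass it either.

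EIF4EBP1 (chromosome 8, 38030534 to 38060365), a protein that blocks eIF4E until mTOR phosphorylates it, had the largest change of any member. It had 50.9, 30.0 and 34.1 CPM in vehicle and 114, 126 and 119 CPM under Tg. The Tg libraries were far above every other library of the series, a 3.13-fold rise against vehicle (log2 fold change 1.64, SE 0.13, adjusted p = 2.33e-12). Vehicle library 1 was the highest of its group, and the log2 fold change lay between 1.48 and 1.90 over the 12 alternatives. Its paralogs had 19.3, 24.9 and 23.5 CPM (EIF4EBP2) and 4.60, 4.69 and 3.45 CPM (EIF4EBP3) in vehicle. Under Tg, EIF4EBP2 had a log2 fold change of 0.22 (SE 0.10, adjusted p = 0.085) and EIF4EBP3 of -0.13 (SE 0.19, adjusted p = 0.667), and neither passed the test. EIF4ENIF1, which carries eIF4E into the nucleus, was at -0.03 (adjusted p = 0.718).

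The remaining calls under Tg were small. EIF6 (chromosome 20, 35278907 to 35284985), which keeps the large ribosomal subunit from joining too early, had 320, 235 and 252 CPM in vehicle and 313, 301 and 312 CPM under Tg. The groups overlapped, since vehicle library 1 was above all Tg libraries (log2 fold change 0.20, adjusted p = 0.0482), and the call was lost in 10 of 12 alternatives, among them without any single library other than vehicle library 1 (adjusted p from 0.0702 to 0.399). EIF5AL1 had 324, 322 and 278.5 CPM in vehicle and 267.5, 242 and 289 CPM under Tg, again with overlap (log2 fold change -0.21, adjusted p = 0.037). That result did not hold without vehicle library 1 (adjusted p = 0.108) or 2 (adjusted p = 0.0804), or without Tg library 1 (adjusted p = 0.0568) or 2 (adjusted p = 0.22). EIF5A, whose protein carries hypusine and helps ribosomes through difficult stretches, had 483, 364 and 399 CPM in vehicle and 368, 355 and 379 CPM under Tg (log2 fold change -0.18, adjusted p = 0.061). It was not called in the main fit, but DESeq2, the fit with no filter and the fit on total counts alone called it.

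Across the alternatives for Tg, 10 members kept their call in all 12: EIF1, EIF1B, EIF2A, EIF2D, EIF2S2, EIF5 and EIF4EBP1 higher, and EIF4A3, EIF4E2 and EIF4G1 lower.

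**Figure D4:**
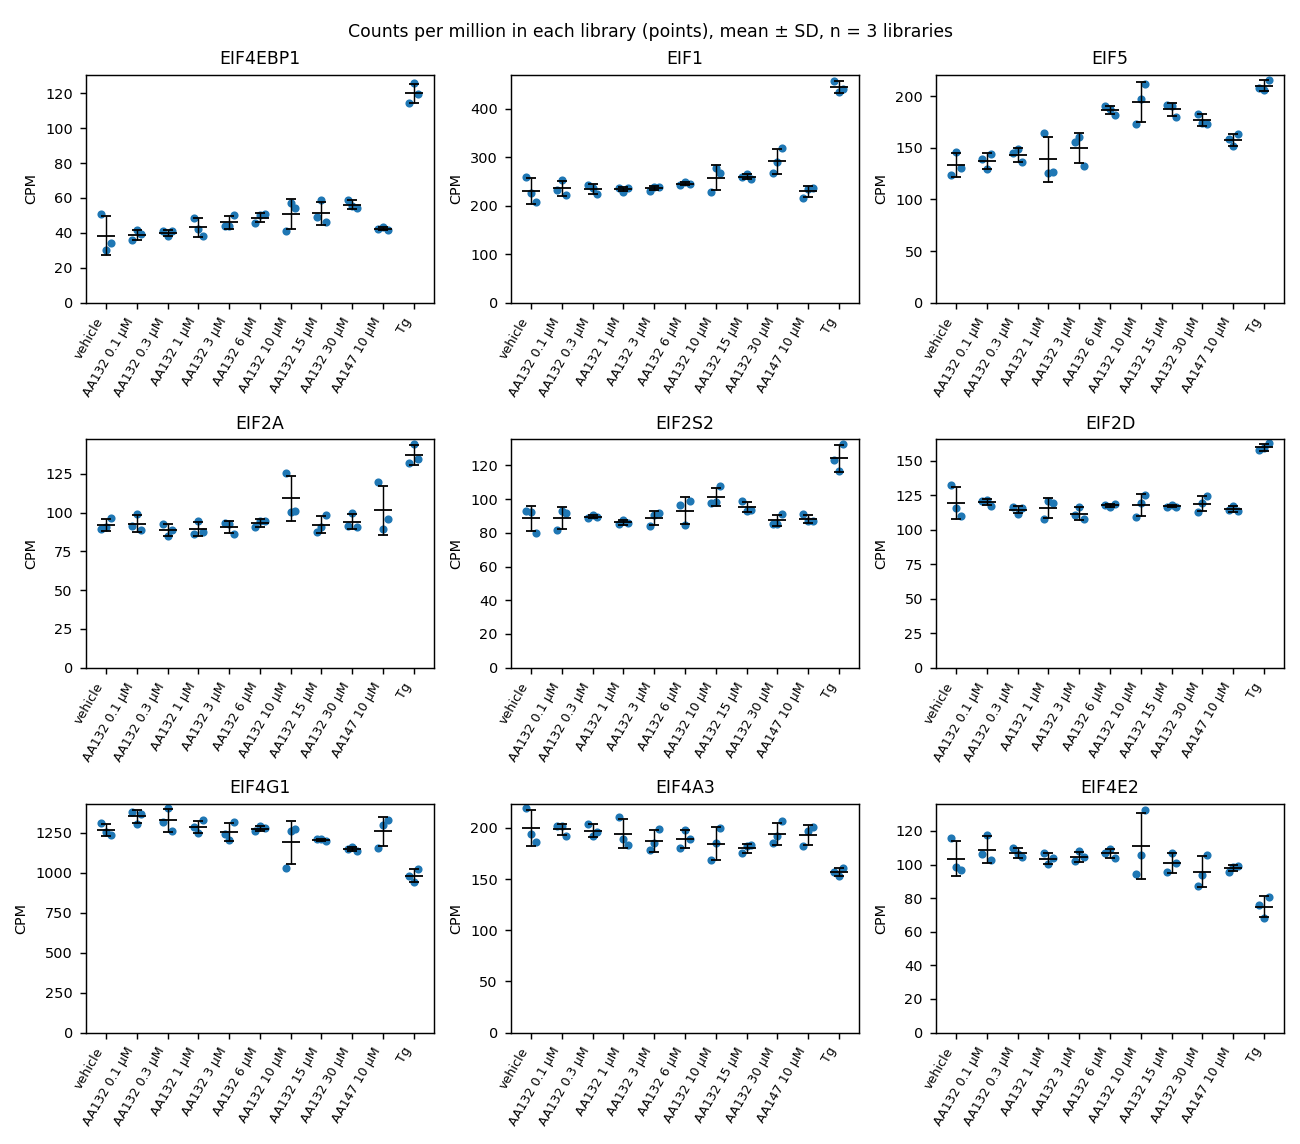
CPM in each library (points) with mean ± SD over 3 libraries, for 9 members in the 11 conditions, each axis starting at 0. Tg is highest for EIF4EBP1 (114 to 126 CPM), EIF1, EIF2A, EIF2S2 and EIF2D and lowest for EIF4G1, EIF4A3 and EIF4E2, while EIF5 is also high from 6 µM AA132 up.

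AA132 was given at 8 doses, each compared with vehicle to see from which dose a factor changed. At 0.1, 0.3, 1 and 3 µM, edgeR called 0 members, with 0, 2, 3 and 5 at an unadjusted p under 0.05, and DESeq2 also called 0. Of all genes, 0% were called at 0.1, 0.3 and 1 µM and 0.118% at 3 µM. Without vehicle library 1, 1 member was called at 3 µM. At 6, 10, 15 and 30 µM, 2, 1, 1 and 8 members were called, beside 1.07%, 1.41%, 2.76% and 7.05% of all genes. The 8 at 30 µM were 3 higher and 5 lower, where 3.86% and 3.19% of all genes were called. In fits that held only the libraries of the dose and of vehicle, 0 members were called at each of these 4 doses.

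EIF5 was the member called at every dose from 6 µM up. Its CPM were 139, 129 and 144 at 0.1 µM, 145, 149 and 136 at 0.3 µM, 164, 126 and 127 at 1 µM, and 155.5, 161 and 133 at 3 µM. They were 190.1, 188 and 182 at 6 µM, 173, 197 and 212 at 10 µM, 191, 190.3 and 180.1 at 15 µM, and 183, 174 and 173.5 at 30 µM. From 6 µM up, every library lay above the highest vehicle library at 146 CPM, while the lower doses overlapped vehicle. The log2 fold changes were 0.48 at 6 µM (SE 0.08, adjusted p = 8.76e-04), 0.54 at 10 µM (SE 0.08, adjusted p = 1.58e-04), 0.49 at 15 µM (SE 0.08, adjusted p = 3.76e-04) and 0.41 at 30 µM (SE 0.08, adjusted p = 0.00211). No test between doses was made. With only the dose and vehicle in the fit, the adjusted p was 0.0919, 0.217, 0.0656 and 0.106.

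EIF4EBP1 had 36.0, 41.4 and 39.2 CPM at 0.1 µM, 41.0, 38.2 and 41.0 at 0.3 µM, 48.8, 42.5 and 38.2 at 1 µM, and 43.8, 44.2 and 50.3 at 3 µM. It had 45.6, 50.003 and 50.8 CPM at 6 µM, 41.2, 57.1 and 54.5 at 10 µM, 49.0, 58.7 and 46.0 at 15 µM, and 59.0, 55.1 and 54.4 at 30 µM. Up to 15 µM each dose overlapped vehicle, whose library 1 was at 50.9 CPM, and at 30 µM the groups were apart. The gene was called at 30 µM (log2 fold change 0.55, SE 0.13, adjusted p = 0.00549). DESeq2 called it at 10 and 15 µM as well, and the fit with no filter at 6, 10 and 15 µM.

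EIF1 had 267, 290 and 318.5 CPM at 30 µM AA132, all above the highest vehicle library at 259 CPM, and was called (log2 fold change 0.34, SE 0.07, adjusted p = 0.00254). At the doses from 0.1 to 15 µM its libraries ran from 222 to 278 CPM and overlapped vehicle at each dose. EIF1B had 30.6, 29.6 and 33.5 CPM at 30 µM and was apart from vehicle, yet did not pass the edgeR test (log2 fold change 0.25, adjusted p = 0.0612). DESeq2 called it. EIF2A, EIF2S2 and EIF2D, higher under Tg, had log2 fold changes at 30 µM of 0.03, -0.02 and -0.01, with 95% intervals of -0.14 to 0.19, -0.15 to 0.11 and -0.13 to 0.11.

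The members called lower at 30 µM were EIF3A, EIF3B, EIF3G, EIF5B and EIF5AL1. EIF3A (chromosome 10, 119033670 to 119080817), the largest eIF3 subunit, had 519, 704 and 641 CPM in vehicle and 501.5, 561 and 499 CPM at 30 µM (log2 fold change -0.26, SE 0.07, adjusted p = 0.0295). The groups overlapped because vehicle library 1 was low. EIF3B had 553, 605 and 614 CPM at 30 µM, below every vehicle library (log2 fold change -0.29, SE 0.07, adjusted p = 0.012). EIF3G (chromosome 19, 10115014 to 10119918), a subunit that binds RNA, had 337, 279.5 and 265 CPM in vehicle and 248, 248 and 253 CPM at 30 µM, also apart (log2 fold change -0.24, SE 0.07, adjusted p = 0.0252). Of the 14 eIF3 genes, 13 had a negative log2 fold change at 30 µM, with a median of -0.15, beside a median of 0.00 over all genes. Of all 49 members tested, 38 were negative there and 11 positive, with a median of -0.11. The negative ones were 10 of 11 in the eIF4F group, 5 of 5 in eIF2B and 4 of 8 in the mixed start-codon group. The lean was thus not particular to eIF3, nor to 30 µM. The eIF3 count was 12 at 3, 6 and 15 µM and under AA147, with 0 eIF3 genes called and medians from -0.08 to -0.03. It was 11 at 0.3 µM, 10 at 1 and 10 µM, and 5 at 0.1 µM and under Tg. All these comparisons share the 3 vehicle libraries.

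EIF5B had 263, 280.5 and 289 CPM at 30 µM, below every vehicle library (log2 fold change -0.26, SE 0.08, adjusted p = 0.0278). EIF5AL1 had 225, 277 and 246 CPM at 30 µM, apart from vehicle by a small gap (log2 fold change -0.31, SE 0.08, adjusted p = 0.0126), while EIF5A had 362, 401 and 387 CPM, overlapped vehicle and was not called. Without AA132 30 µM library 1, the number of members called fell from 8 to 3, and all 5 lower calls were lost (adjusted p from 0.0824 to 0.14). The 3 that stayed were EIF1, EIF5 and EIF4EBP1. EIF3G and EIF5B were also lost without library 2 of this dose (adjusted p = 0.0833 and 0.0721), and EIF3A and EIF3G without its library 3 (adjusted p = 0.105 and 0.0504). Vehicle libraries decided single calls too: EIF3A was lost without library 2 (adjusted p = 0.186) or 3 (adjusted p = 0.0921), EIF3B without library 1 (adjusted p = 0.0525), EIF3G without library 1 (adjusted p = 0.194) and EIF5B without library 1 (adjusted p = 0.0727) or 2 (adjusted p = 0.0659).

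At 6 µM the other member called was EIF4A1 under its own name. It had 10.1, 15.5 and 8.10 CPM at 6 µM, below the vehicle libraries (log2 fold change -0.94, SE 0.22, adjusted p = 0.0257). The other AA132 libraries ran from 9.06 to 26.96 CPM. They had 15.6, 26.96 and 24.0 CPM at 3 µM and 15.9, 12.8 and 9.06 at 10 µM. At 15 µM they had 14.7, 16.9 and 16.3 CPM, and at 30 µM 16.991, 11.5 and 19.8. Means were 17.1, 20.6, 20.3 and 22.2 CPM at 0.1, 0.3, 1 and 3 µM. At 6, 10, 15 and 30 µM the means were lower, at 11.2, 12.6, 16.0 and 16.1 CPM. The libraries at 0.1, 10 and 15 µM also lay below vehicle. The fit with no filter called EIF4A1 at 10, 15 and 30 µM as well. The call at 6 µM was lost without library 1 of that dose (adjusted p = 0.151), without its library 3 (adjusted p = 0.208) and without vehicle library 2 (adjusted p = 0.0641), which left 1 member called. SENP3-EIF4A1 had 1665, 1696 and 1711 CPM at 6 µM, within the vehicle range, with a log2 fold change of -0.10 (adjusted p = 0.64).

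A slope on log10 dose was fitted over the 24 AA132 libraries to ask which members followed dose. It called 14 members, 3 higher with dose and 11 lower, beside 18.7% of all genes (9.83% higher, 8.89% lower), and all 8 members called at 30 µM were among the 14. Slopes are log2 units per 10-fold dose. EIF5 had a slope of 0.21 (SE 0.03, adjusted p = 1.16e-05), EIF4EBP1 of 0.21 (SE 0.03, adjusted p = 2.21e-06) and EIF1 of 0.10 (SE 0.02, adjusted p = 0.0012). Among the members called, EIF5AL1 had the steepest fall at -0.12 (SE 0.02, adjusted p = 4.65e-04), followed by EIF4G3 and EIF3A at -0.10 each. EIF4G1, EIF4G2, EIF3B, EIF3CL, EIF3G, EIF3I, EIF5A and EIF5B had slopes from -0.09 to -0.05. Outside the members, both read-through entries were also called lower with dose. ANKHD1-EIF4EBP3 had a slope of -0.11 (SE 0.04, adjusted p = 0.0277) and SENP3-EIF4A1 of -0.06 (SE 0.02, adjusted p = 0.0381).

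The members that followed dose downward thus took in the 3 eIF4G scaffold genes, 5 eIF3 entries, EIF5A with its copy, and EIF5B. EIF4G3, for example, had 373, 357 and 371 CPM at 0.1 µM and 322, 322 and 296.5 CPM at 30 µM, without overlap between these ends. Its vehicle libraries, at 292, 399 and 363 CPM, overlapped both, and it was not called against vehicle at 30 µM (log2 fold change -0.16, adjusted p = 0.184). Without the 30 µM dose, the slopes of EIF3A (adjusted p = 0.0824), EIF3B (adjusted p = 0.0602), EIF3CL (adjusted p = 0.221) and EIF3G (adjusted p = 0.464) were lost, while those of EIF1, EIF5 and EIF4EBP1 remained. Single libraries also ended some of these slopes: EIF3CL was lost without any 1 of 8 libraries (adjusted p up to 0.102), EIF3G without any 1 of 7 (adjusted p up to 0.151), and EIF4G2 without 0.1 µM library 2 (adjusted p = 0.0577).

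AA147 at 10 µM was compared with vehicle and with AA132 at the same dose. Against vehicle, edgeR called 0 members, with 6 at an unadjusted p under 0.05, DESeq2 called 0, and 0.0225% of all genes were called. EIF5 had 159, 151 and 163 CPM under AA147, above the vehicle libraries, with a log2 fold change of 0.24 (95% interval 0.08 to 0.41, adjusted p = 0.532). EIF4A1 under its own name had 9.58, 10.5 and 17.7 CPM, below vehicle (log2 fold change -0.77, adjusted p = 0.358). EIF4EBP1 had 42.0, 43.3 and 41.9 CPM and EIF1 217, 235 and 237 CPM, both within the vehicle range (95% intervals of the log2 fold change -0.10 to 0.40 and -0.15 to 0.14).

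Between AA132 and AA147 at 10 µM, 0 of 49 members were called by edgeR, with 9 at an unadjusted p under 0.05, and 0 by DESeq2, beside 0.0674% of all genes. EIF5 was 0.30 higher on the log2 scale under AA132 (95% interval 0.13 to 0.46, adjusted p = 0.223), and all AA132 libraries lay above all AA147 libraries. EIF3J was 0.25 higher (95% interval 0.10 to 0.40, adjusted p = 0.304) and EIF4EBP1 0.26 higher (95% interval 0.02 to 0.51, adjusted p = 0.605). These intervals exclude 0 before adjustment for the number of genes, so the missed threshold does not show that the compounds act alike. Without AA132 10 µM library 1, which stood apart, 1 member was called.

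AA132 at 30 µM was also compared with Tg directly. The comparisons of each with vehicle share the 3 vehicle libraries; in those, 3 members were higher in both (EIF1, EIF4EBP1, EIF5; 3 of the 10 higher under Tg and of the 3 higher at 30 µM) and 3 were lower in both (EIF3B, EIF5AL1, EIF5B; 3 of 7 and of 5). In the direct comparison, 19 members were called, 16 lower and 3 higher under AA132, beside 29.8% of all genes (14.3% higher, 15.5% lower).

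This comparison and that of Tg with vehicle share the 3 Tg libraries, so the direction at members called under Tg is not independent of that call, and the values are given side by side. EIF4EBP1 was lower by the largest amount, at 59.0, 55.1 and 54.4 CPM beside 114, 126 and 119 CPM (log2 fold change -1.09, SE 0.12, adjusted p = 2.2e-08). EIF1 followed (log2 fold change -0.61, SE 0.07, adjusted p = 4.41e-08), then EIF2A (-0.54, adjusted p = 5.59e-06), EIF2S2 (-0.51, adjusted p = 4.76e-07) and EIF2D (-0.43, adjusted p = 1.82e-06). EIF5 differed least of these, at -0.25 (SE 0.08, adjusted p = 0.0209), a call lost in 5 of 12 alternatives (adjusted p from 0.0563 to 0.0926), 4 of which left out library 2 or 3 of AA132 or library 1 or 3 of Tg. The eIF3 genes gave 6 lower calls of 14, led by EIF3J (-0.35, adjusted p = 5.94e-04) and EIF3A (-0.32, adjusted p = 0.00112). EIF4E2 (0.36, adjusted p = 0.00215), EIF4A3 (0.31, adjusted p = 6.55e-04) and EIF4G1 (0.22, adjusted p = 0.00644) were higher under AA132 than under Tg.

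EIF2B3 encodes a subunit of the catalytic part of eIF2B and was the eIF2B gene called in this comparison. It had 83.5, 84.3 and 90.5 CPM at 30 µM AA132 and 107, 112 and 108 CPM under Tg, without overlap (log2 fold change -0.34, SE 0.08, adjusted p = 0.00177). Its vehicle libraries, at 106, 89.0 and 88.6 CPM, overlapped the AA132 libraries, with library 1 just under the Tg values.

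**Figure D5:**
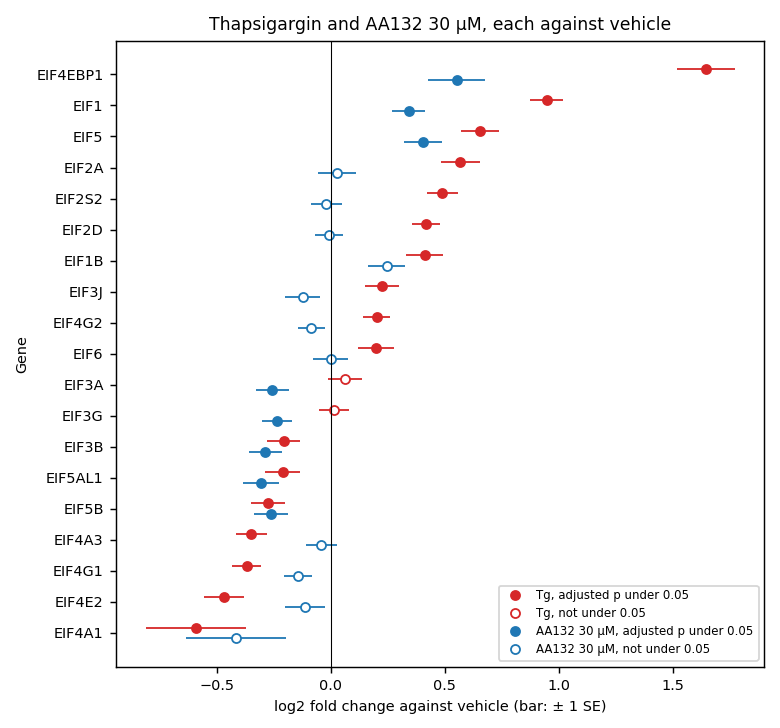
Log2 fold change against vehicle (bars are 1 SE) under Tg (red) and 30 µM AA132 (blue) of the 19 members called against vehicle in any treatment, filled where the adjusted p is under 0.05. EIF4EBP1 lies at 1.64 under Tg and 0.55 under AA132, while EIF2A, EIF2S2 and EIF2D move away from 0 under Tg alone.

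Over the whole series, 22 of the 49 tested members were called in no comparison and by no slope in the main edgeR fit. They were EIF2B1, EIF2B2, EIF2B4 and EIF2B5 of eIF2B, EIF2S3 of eIF2, and EIF3E, EIF3F, EIF3H, EIF3K, EIF3L and EIF3M of eIF3. From the mRNA-binding side they were EIF4A2, EIF4B, EIF4E, EIF4E3, EIF4H, EIF4EBP2, EIF4EBP3 and EIF4ENIF1, and the others were EIF1AD, EIF1AX and EIF5A2. For EIF4EBP3 this holds for the entry of that name only. ANKHD1-EIF4EBP3, the read-through entry with the higher CPM, was called lower by the slope (adjusted p = 0.0277). Other fits called some of the 22. DESeq2 called EIF3H at 30 µM AA132, EIF3M for AA132 at 30 µM against Tg, and EIF2B2, EIF2B5 and EIF3K by the slope. With only the conditions compared, EIF3E, EIF3K and EIF3M were called for AA132 at 30 µM against Tg. Several of the 22 have few counts, EIF1AX and EIF4E3 among them, so a change of the size seen at EIF1B may not be detectable there.

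Genes around the factors were set beside them from lists written with results of these data known. Of 14 genes of the eIF2 phosphorylation cycle and its output, 7 were higher and 1 lower under Tg (median log2 fold change 0.28, all genes 0.00), where 16.2% of all genes were higher and 15% lower. They were led by TRIB3 (3.89) and DDIT3 (3.62), known targets of ATF4 signalling, and PPP1R15A (1.64), whose protein directs a phosphatase to eIF2. Of the eIF2 kinases, EIF2AK3, which encodes the ER stress kinase PERK, went from 38.2 ± 3.81 to 109.5 ± 5.08 CPM (SD, n = 3; log2 fold change 1.52, adjusted p = 7.76e-18). EIF2AK1 (0.12, adjusted p = 0.122), EIF2AK2 (0.16, adjusted p = 0.24) and EIF2AK4 (-0.01, adjusted p = 0.948) did not pass the test. At 30 µM AA132 the list gave 5 higher and 0 lower, beside 3.86% and 3.19% of all genes, with DDIT3 at 1.34 and TRIB3 at 1.06, and EIF2AK3 was at 0.15 (adjusted p = 0.213).

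Of 26 initiation partners without an EIF name, 7 were higher and 6 lower under Tg (median 0.05), 50% of the list beside 31.2% of all genes. They were led by DHX9, an RNA helicase, at -0.63 (adjusted p = 1.02e-10), PDCD4, which inhibits eIF4A, at 0.50 (adjusted p = 2.5e-07), and PAIP2B, which holds back the poly(A)-binding protein, at 0.45 (adjusted p = 0.00164). At 30 µM AA132, 2 of the 26 were called, both lower: BZW2 (-0.29, adjusted p = 0.021) and CYFIP1 (-0.18, adjusted p = 0.0322). This is 7.69% of the list, near the 7.05% of all genes. Of 17 elongation, termination and hypusine genes, 5 were higher and 0 lower under Tg, 29.4% of the list and near the 31.2% of all genes. GTPBP2, a GTPase gene, led them (1.58, adjusted p = 3.44e-16). Of 10 mitochondrial translation factors, 3 were higher and 2 lower under Tg, 50% of the list. At 30 µM AA132, where 7.05% of all genes were called, the first of these lists gave 1 higher and 1 lower, and the second 0 by edgeR, with 1 of the 10 at an unadjusted p under 0.05.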

How the data were processed

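The 33 columns of the deposited table hold expected counts, estimated read totals per gene that the authors made and did not scale between libraries, per the file headers. RNA was total RNA, and libraries were sequenced on a DNBSEQ platform, per the labels' protocols. The build was GRCh38.p7 per the submitters' processing notes; aligner, counting tool, annotation and strand use are not given in the sources used here. The lowest value, 0.009, stands in place of 0 in 43.51% of cells and was set to 0. Entries that shared 1 of 45 names were summed by name (98 entries), and expected counts, 3.216% of them fractional, were rounded.

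All 11 conditions entered 1 fit of edgeR 4.0.16 (quasi-likelihood F-test, R 4.3.3) without a block, with scaling by the trimmed mean of M values and edgeR's filter on low counts, which left 17793 genes (17554 for the slope). The coefficient of variation between libraries was 9.09%. The threshold for a call was 0.05 on the p-value adjusted by Benjamini-Hochberg over all genes tested, separately for each comparison. Intervals are the estimate ± 1.96 SE. Transcript lengths and positions come from GENCODE v44, matched by symbol, and promoters from RefSeq GRCh38.p14; neither was used in counting.

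Values by library were given for members called against vehicle with an absolute log2 fold change of at least 0.5. They were also given for members called at any AA132 dose and for some paralogs. For most genes they cover the conditions discussed and not all 33 libraries. Other members called under Tg were added after their values were seen. From each further list, up to 3 called genes and the eIF2 kinases were named. The members and lists were chosen with earlier results of these data known. Alternatives were DESeq2 1.42.0, no filter, other scalings, a replicate block, only the conditions compared, and leaving out each library or the 30 µM dose.

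The fit was tested on simulated data of 17793 genes, 200 of them changed. For Tg against vehicle it recovered 28.5% at 1.3-fold, 62% at 1.5-fold and 73% at 2-fold. Of the calls made, 1.72%, 6.06% and 5.19% were false. Among changed genes of at least 10 CPM it recovered 50%, 91.1% and 100%. In the data 31.2% of genes were called under Tg, and some libraries stood apart, which the simulation did not include. These rates therefore need not hold for the data.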

Additional observations from a re-analysis of the deposited data

How the results depend on the processing

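Of 62 calls of a member in a comparison or by the slope, 32 were kept under every alternative run and 30 were lost under at least 1; over 996 refits of single calls, 113 lost the call and 0 reversed. With only the conditions compared in the fit, the number of members called was 11 under Tg, 0 for AA132 at 6, 10, 15 and 30 µM, and higher, at 23, for AA132 at 30 µM against Tg. With no filter it was 1 for AA147 (EIF4A1), 3 at 10 µM, 3 at 15 µM and 1 for AA132 against AA147 (EIF5), and EIF4EBP1 was added at 6 µM. DESeq2 gave 2 at 10 µM and 2 at 15 µM, where EIF4EBP1 was added, and at 30 µM it added EIF1B, EIF2S1 and EIF3H. The cause was not tested. Leaving out 1 library gave 13 to 16 for Tg, 0 to 0 for AA147 and for AA132 at 0.1, 0.3 and 1 µM, 0 to 1 at 3 µM, 1 to 3 at 6 µM, 1 to 4 at 10 µM, 1 to 3 at 15 µM, 3 to 9 at 30 µM, 0 to 1 for AA132 against AA147, 13 to 19 for AA132 at 30 µM against Tg, and 11 to 17 for the slope. The highest of these at 10 µM (4) and at 15 µM (3) came without vehicle library 1; AA132 10 µM library 1 left out also gave 3 at its dose.

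With the library number as a replicate block, 16 members were called under Tg (EIF6 was lost), 8 at 30 µM, 19 for AA132 at 30 µM against Tg and 14 for the slope. The numbers did not pair the libraries: over 165 same-numbered pairs the correlation of deviations ran from -0.42 to 0.33 (median 0.00), 19 pairs were over 0.1, and 13 of 33 libraries correlated best with their own number.

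Depth limits the low members: EIF1AX, EIF4E and EIF5A2, at under 10 CPM in every library, have wide intervals, and counting intervals cover counting error only.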
